A study of Mus musculus with 4 samples.

Results

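The genes of G2/M and the mitotic spindle were 44 genes chosen by name, from the CDK1 and cyclin kinases that start mitosis to the motors, kinetochore proteins and checkpoint proteins that carry it out. All 44 symbols were found among the 54532 genes of the count table, each on a single row, and all 44 passed the filter on low counts, which left 13884 genes tested. RNA was taken from primary T cells of the mouse, which are not a cell line, grown in medium with serum, antibiotics, the growth cytokine IL2 and CD3/28 beads that mimic antigen stimulation. The Control group (n = 2) had no PTC and the PTC group (n = 2) was treated with it, and every library was labelled 12 h. What PTC stands for is not spelled out in the labels, nor are its dose, the strain and age of the mice, or the T cell subset. Nothing says that replicates are separate cultures or mice, so the p-values here reflect the spread between 2 libraries of a group, possibly technical.

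In a dividing cell, cyclin A2 and the B cyclins bind the kinase CDK1 at the end of G2 and drive entry into mitosis, together with the Polo and Aurora kinases. Kinetochores, protein assemblies on the centromeres, then attach chromosomes to spindle microtubules, and unattached kinetochores feed the spindle checkpoint, which holds back the anaphase-promoting complex (APC/C) and its activator CDC20. Once the checkpoint is satisfied, the APC/C marks securin and the B cyclins for destruction and separase cuts cohesin. The transcripts of these genes peak in G2 and mitosis and are low in resting lymphocytes, and activated T cells, which divide fast, express them strongly. In RNA from a whole culture, a smaller share of cells in mitosis and less of the RNA per cell cannot be told apart.

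Libraries held 15458818 to 16639911 counts, and a count of 0 would have allowed 0.184 to 0.195 CPM (counts relative to a library size scaled by the trimmed mean of M values, TMM), so depth limited none of these genes from being detected. Each of the 44 had between 80 and 7129 counts in every library. The labelled cell type was checked against markers fixed in a list. The 10 T cell markers summed to 3684 to 3796 CPM in Control and 3986 to 4094 CPM in PTC libraries, with none at 0. Myeloid markers (10 genes, 4 with a positive and 6 with a negative log2 fold change) summed to 1037 to 1047 CPM in Control and 1293 to 1469 CPM in PTC libraries, most of it from Lyz2. B cell markers (7 genes) summed to 521 to 529 and 556 to 566 CPM, erythroid markers (6 genes, with Alas2 at 0 counts throughout) to 7.78 to 9.51 and 2.86 to 3.74 CPM, and the 2 NK cell markers to 2.30 to 2.64 and 2.47 to 3.06 CPM. The part of these other cells in the values of the mitotic genes was not tested.

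The promoters of the mitotic genes carried a pair of short motifs more often than other promoters did. Known background for these motifs is that the CCAAT box is bound by NF-Y, and that the cell-cycle genes homology region (CHR, written TTTGAA) is read by MuvB complexes, which repress these genes as DREAM in resting cells and, with B-MYB and FOXM1, activate them in G2. Windows from RefSeq on GRCm38.p6, of 250 bases before and 50 after the annotated start, were matched for 36 of the 44 genes, the first window listed per gene being used, and both strands were searched. TTTGAA was found in 24 of the 36 windows (66.7%), against 12.1% of the windows of 9959 tested genes and 18.1% of all 27025 windows. At least 1 CCAAT was found in 27 of 36 (75%), against 38.7% of tested genes and 37.9% of all windows, and at least 2 in 17 (47.2%), against 15% and 12.2%. Both motifs together stood in 21 of the 36 windows (58.3%), against 5.1% of tested genes and 7.12% of all. These are letter matches, given as a description, and CCAAT and TTTGAA can share at most 1 letter on any strand.

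**Figure D1:**
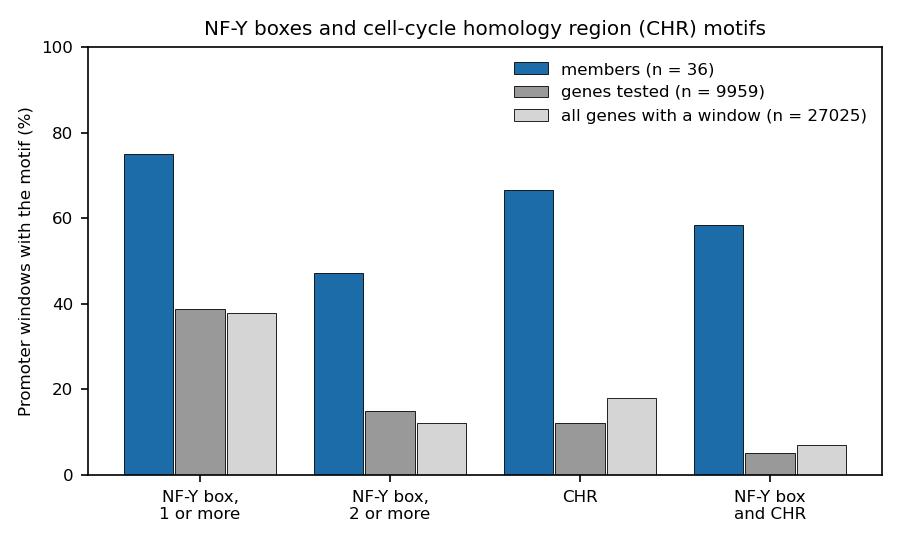
Share of promoter windows (%, y axis, from 0) holding at least 1 or at least 2 NF-Y boxes (CCAAT), the CHR motif (TTTGAA), or both, for the mitotic genes, the tested genes and all genes with a window. The bars of the mitotic genes stand above the others for every motif, with 66.7% against 12.1% of tested genes for the CHR.

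Windows holding both motifs are shown for 4 genes, so that the arrangement can be read. These had the highest levels per length among the genes with both motifs that were named by the rule given under processing. Of the genes named by that rule, Cdk1, Kif22, Kif11, Mki67, Espl1 and Ttk also held both motifs and are not shown. Capitals mark each CCAAT and each CHR, read on either strand, and the letters run 5′ to 3′ on the strand of the gene. They belong to Cdc20 (chr4:118437294-118437593, minus strand), Ccnb2 (chr9:70421505-70421804, minus strand), Top2a (chr11:99024140-99024439, minus strand) and Bub3 (chr7:131560120-131560419, plus strand), all on GRCm38.p6.
Cdc20: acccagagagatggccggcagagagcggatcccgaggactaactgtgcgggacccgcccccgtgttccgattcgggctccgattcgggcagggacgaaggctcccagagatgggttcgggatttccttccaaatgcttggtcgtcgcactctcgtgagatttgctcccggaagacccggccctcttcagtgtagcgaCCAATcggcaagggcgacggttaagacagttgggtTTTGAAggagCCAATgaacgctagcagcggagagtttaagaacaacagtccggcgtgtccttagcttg
Ccnb2: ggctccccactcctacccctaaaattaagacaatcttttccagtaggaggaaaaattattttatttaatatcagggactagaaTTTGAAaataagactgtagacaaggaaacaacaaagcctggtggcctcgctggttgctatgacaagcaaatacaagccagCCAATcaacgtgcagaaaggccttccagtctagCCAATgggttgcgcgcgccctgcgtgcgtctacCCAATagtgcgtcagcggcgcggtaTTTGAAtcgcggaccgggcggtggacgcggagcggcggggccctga
Top2a: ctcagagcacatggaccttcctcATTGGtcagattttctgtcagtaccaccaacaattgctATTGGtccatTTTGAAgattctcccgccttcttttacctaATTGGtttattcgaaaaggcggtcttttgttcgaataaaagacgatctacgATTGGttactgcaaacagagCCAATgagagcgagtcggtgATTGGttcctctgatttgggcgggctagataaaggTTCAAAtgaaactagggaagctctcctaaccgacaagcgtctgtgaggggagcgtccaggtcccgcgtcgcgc
Bub3: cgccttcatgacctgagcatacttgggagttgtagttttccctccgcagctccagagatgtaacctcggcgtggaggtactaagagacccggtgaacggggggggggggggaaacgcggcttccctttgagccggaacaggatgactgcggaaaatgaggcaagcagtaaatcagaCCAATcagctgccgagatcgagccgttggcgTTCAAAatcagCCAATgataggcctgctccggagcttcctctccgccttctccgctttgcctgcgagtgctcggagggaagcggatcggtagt
In Cdc20 the CHR starts 18 bases before the annotated start, between CCAAT boxes that begin 53 and 8 bases before it. In Bub3 the CHR, on the other strand, lies 43 bases before the RefSeq start, again between CCAAT boxes at 74 and 32 bases. By the gene coordinates deposited with the counts, Bub3 starts further upstream, at chr7:131560222, and these motifs lie inside it. Ccnb2 has 3 CCAAT boxes, at 87, 54 and 21 bases before the start, with CHR letters 4 bases after it and 167 bases before it. Top2a has 6 NF-Y boxes, 5 of them on the other strand, and CHR letters 179 and 23 bases before the start. The log2 fold changes of the 21 genes with both motifs had a median of 0.01 and ran from -0.30 to 0.20, and those of the 15 without both had a median of -0.01 and ran from -0.43 to 0.26.

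Levels per length differed widely among these genes and little between libraries. In RPKM (CPM divided by the deposited gene length in kilobases), the mean over the 4 libraries ran from 88.8 for Cdc20 to 1.07 for Cenpf, an 83.2-fold range with a median of 19.2. The APC/C activator gene Cdc20, the ubiquitin-conjugating enzyme gene Ube2c that works with the APC/C (80.2 RPKM) and the cyclin gene Ccnb2 (78.2 RPKM) stood highest. They were followed by the kinase gene Plk1 (65.7 RPKM) and by Incenp, which encodes the scaffold of the chromosomal passenger complex (58.9 RPKM). At the low end were the kinetochore genes Cenpk (1.38 RPKM) and Cenpf and the checkpoint kinase gene Ttk (2.23 RPKM). Among the 43 neighbouring pairs in this order, 34 had library ranges that overlapped, so their order is not fixed by these data. Cdc20, at 86.5 to 94.3 RPKM, did not overlap with Ube2c, at 76.0 to 82.2 RPKM, while Ube2c overlapped with Ccnb2, at 72.2 to 82.9 RPKM. The order and the range also rest on the deposited lengths, 1868 bases for Cdc20 and 15433 for Cenpf. Whether these match the transcripts made in these cells was not tested.

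**Figure D2:**
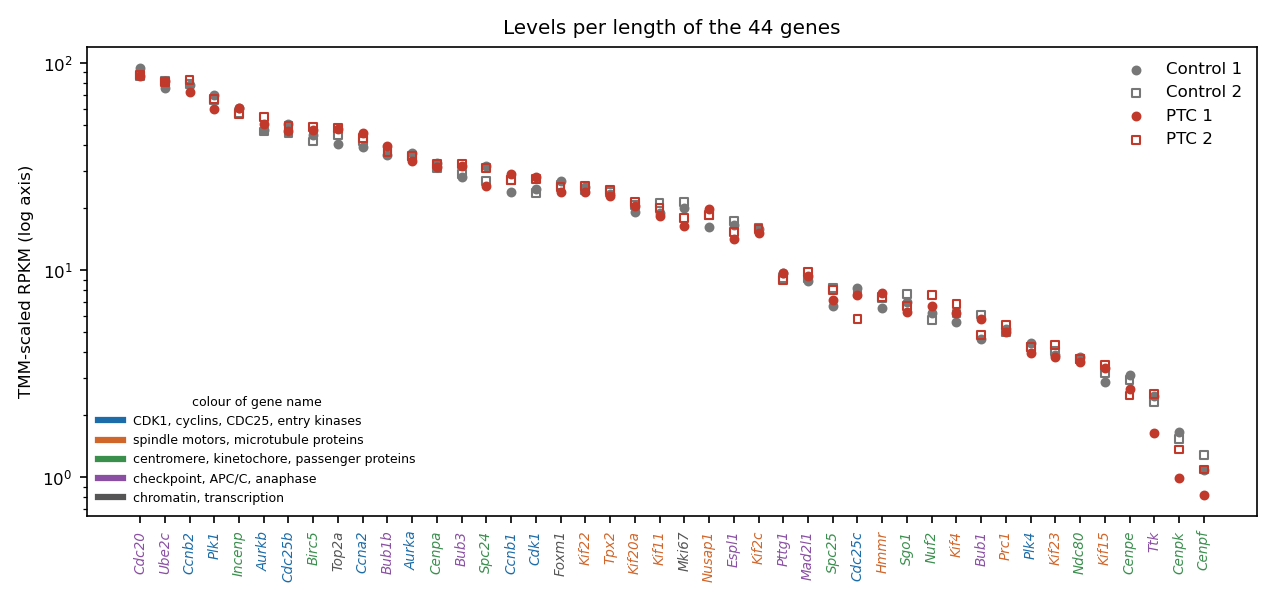
TMM-scaled RPKM (y axis, log scale) of the 44 genes in each of the 4 libraries, ordered by the mean, with gene names coloured by role. The 4 points of a gene lie close together beside the 83.2-fold range from Cdc20 to Cenpf.

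The comparison of PTC with Control asked whether PTC altered transcripts of the mitotic program. None of the 44 genes passed an adjusted p of 0.05 by the quasi-likelihood test of edgeR with Benjamini-Hochberg adjustment over all genes tested, where 1.35% of genes passed, 0.591% higher and 0.763% lower with PTC (0 also by limma-voom and by DESeq2, and 8 at an unadjusted p under 0.05). The smallest adjusted p was 0.106, for Mki67. The 8 genes at an unadjusted p under 0.05 were 18.2% of the 44, against 12.9% of all genes tested. Of them Cdk1, Aurkb, Nuf2, Bub3 and Top2a were higher in the PTC libraries and Cenpk, Espl1 and Mki67 lower, or 5 and 3 genes, where 6.01% and 6.89% of all genes tested were higher and lower. The PTC libraries lay wholly above or wholly below the Control libraries for 22 of the 44 genes (13 higher, 9 lower), or 50%, against 43.6% of all genes tested (21.3% higher, 22.2% lower).

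The fitted log2 fold changes of the 44 genes had a median of -0.01 and ran from -0.43 to 0.26, with 20 positive and 24 negative (54.5% negative, against 50.7% of all genes tested). The median over all genes tested was -0.00. Summed over the 44 genes, transcripts made up 4328 and 4386 CPM in Control 1 and 2, and 4374 and 4513 CPM in PTC 1 and 2. The mean of 4357 ± 41.1 CPM in Control and 4444 ± 98.2 CPM in PTC libraries (SD, n = 2 each) differed by 1.99%, and the range of the PTC libraries overlapped that of the Control libraries. The intervals give the size of change these libraries leave possible, with the spread estimated in part from other genes. If the replicates are technical, they do not cover differences between cultures or mice. The 95% interval of the fold change lay within a 1.5-fold change either way for 41 of the 44 genes and within a 2-fold change for all 44, unadjusted for the number of genes. The 3 genes with wider intervals, Cenpk, Cenpf and Ttk, had the lowest levels per length.

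**Figure D3:**
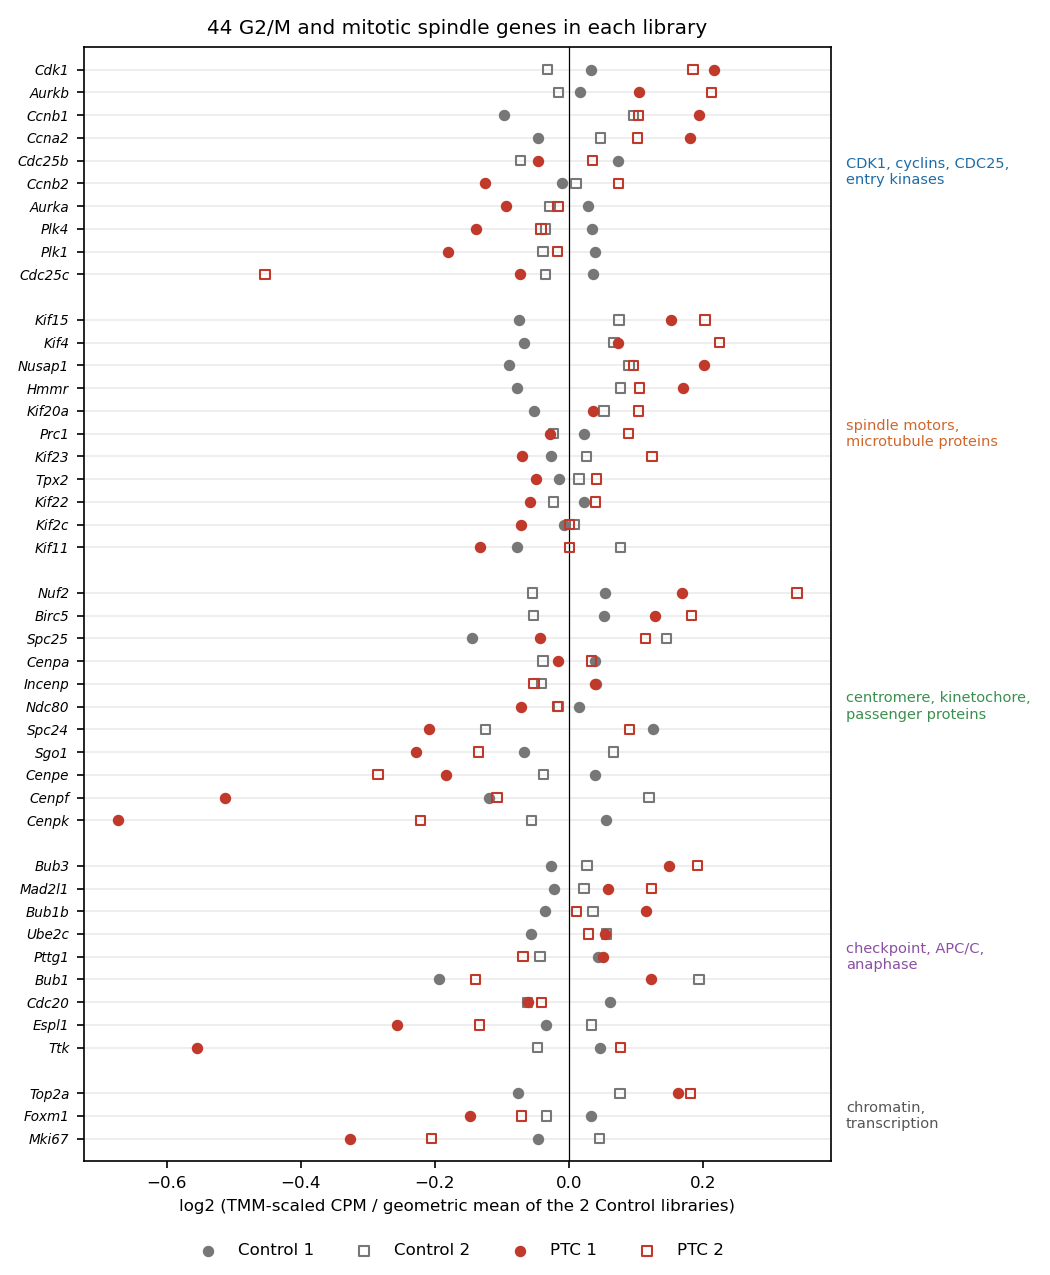
Log2 of the TMM-scaled CPM of each gene in each library over the geometric mean of the Control libraries (x axis), with genes in rows grouped by role and ordered by the fitted change. Grey and red symbols intermix in 22 of the 44 rows, and PTC 1 lies left of PTC 2 in 32.

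Over the 44 genes, libraries of the same group differed by about as much as libraries of different groups. PTC 2 was higher than PTC 1 for 32 of the 44 genes, with a median log2 difference of 0.07, whereas that median was 0.00 over all genes tested. Between the Control libraries the median was 0.02, with 23 of 44 genes higher in Control 2. The median absolute log2 difference over the 44 genes was 0.09 between the Control libraries and 0.10 between the PTC libraries, and it ran from 0.09 to 0.13 over the 4 pairs of a Control and a PTC library. Without PTC 1 the median log2 fold change of the 44 genes was 0.04 and without PTC 2 it was -0.05. It was 0.02 without Control 1, 0.0025 without Control 2 and 0.0091 with all libraries under upper-quartile scaling, so its sign was not fixed by these data.

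The kinases and cyclins that start mitosis split by gene. Cdk1 (chr10:69335146-69352938 on GRCm38, minus strand), the kinase that drives mitotic entry, stood at 122 and 116 CPM in Control 1 and 2 and at 138 and 135 CPM in PTC 1 and 2. Both PTC libraries were above both Control libraries, by 0.20 on the log2 scale (SE 0.08, 95% interval 0.04 to 0.36; edgeR adjusted p = 0.242). Of its cyclin partners, Ccna2 and Ccnb1 stood on the same side and Ccnb2 did not. Ccna2, encoding the S and G2 cyclin A2, had 160.5 and 171 CPM in Control and 188 and 178 CPM in PTC libraries, a log2 fold change of 0.14 (edgeR adjusted p = 0.450). Ccnb1, encoding the main mitotic cyclin, had 99.98 and 114 CPM in Control and 122 and 115 CPM in PTC libraries, where PTC 2 was within 1 CPM of Control 2. Its count is uncertain, since 42.1% of the 50-base words of its longest transcript also occur in other annotated transcripts, most often in the pseudogene Ccnb1-ps. Of the 44 genes 8 shared at least 10% of these words with another gene, namely Ccnb1, Kif20a, Cdc25c, Ube2c, Kif4, Ccna2, Cdc20 and Plk1, and their counts are uncertain in that measure. For Kif20a, Cdc25c, Ube2c, Kif4 and Ccna2 the gene sharing most words overlaps them on the opposite strand, so the doubt depends largely on whether counting used strand. Exosc9 overlaps 12.5% of the exon bases of Ccna2, and Gm3550 12.7% of those of Cdc25c.

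Ccnb2, the most abundant of the cyclins per length, had 119.8 and 122 CPM in Control and 111 and 127 CPM in PTC libraries, and its PTC libraries enclosed the Control range. Aurkb, the kinase gene of the chromosomal passenger complex, had 140.4 and 137 CPM in Control and 149 and 161 CPM in PTC libraries (log2 fold change 0.16, edgeR adjusted p = 0.386). Aurka, whose kinase matures the centrosomes, had a log2 fold change of -0.05 and Plk1, the Polo kinase of mitotic entry, of -0.10, and their groups overlapped. Plk4, the kinase of centriole duplication, stood at -0.09 and the phosphatase gene Cdc25b, which activates CDK1, at -0.01. Cdc25c, a phosphatase gene of the same family, had the lowest value of this class, with 15.8 and 15.1 CPM in Control and 14.7 and 11.3 CPM in PTC libraries. Most of its difference (log2 fold change -0.25, 95% interval -0.58 to 0.07, edgeR adjusted p = 0.523) came from PTC 2, and without that library it was -0.07. Of the 10 genes of this class 2 (20%) had an unadjusted p under 0.05, both higher. Over all genes tested that share was 12.9%, with 6.01% higher.

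The spindle motors and microtubule-associated proteins had the narrowest range of the 5 roles. None of the 11 genes had an unadjusted p under 0.05, against 12.9% of all genes tested, and 7 were positive. The median log2 fold change was 0.03, and the values ran from -0.07 for Kif11 to 0.18 for Kif15. Kif15, a kinesin gene that can back up Kif11 in keeping the spindle bipolar, had 31.7 and 35.1 CPM in Control and 37.1 and 38.4 CPM in PTC libraries (edgeR adjusted p = 0.509). Kif11, encoding the Eg5 motor that pushes spindle poles apart, had 91.3 and 102 CPM in Control and 87.8 and 96.4 CPM in PTC libraries, which overlapped. Kif22, the chromokinesin gene with the highest level per length of this class, had 123 and 119 CPM against 116 and 124 CPM.

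Kif4, another chromokinesin gene, and Nusap1 and Hmmr, which encode spindle-binding proteins, had log2 fold changes of 0.15, 0.15 and 0.14, with PTC libraries above Control libraries in each. Kif20a and Kif23, kinesin genes of cytokinesis, were at 0.07 and 0.03, and Prc1, which bundles the microtubules of the midzone, at 0.03. Kif2c, a microtubule-depolymerising kinesin gene, stood at -0.04 and Tpx2, which activates Aurora A on the spindle, at -0.00. The exons of Kif20a overlap those of Cdc23 on the opposite strand over 29.3% of their bases. Those of Kif4 overlap Pdzd11 over 15.1% and those of Prc1 overlap Rccd1 over 11.1%, also on the opposite strand. Whether counting used strand is not given in the sources used here, so reads of these partners cannot be told apart.

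**Figure D4:**
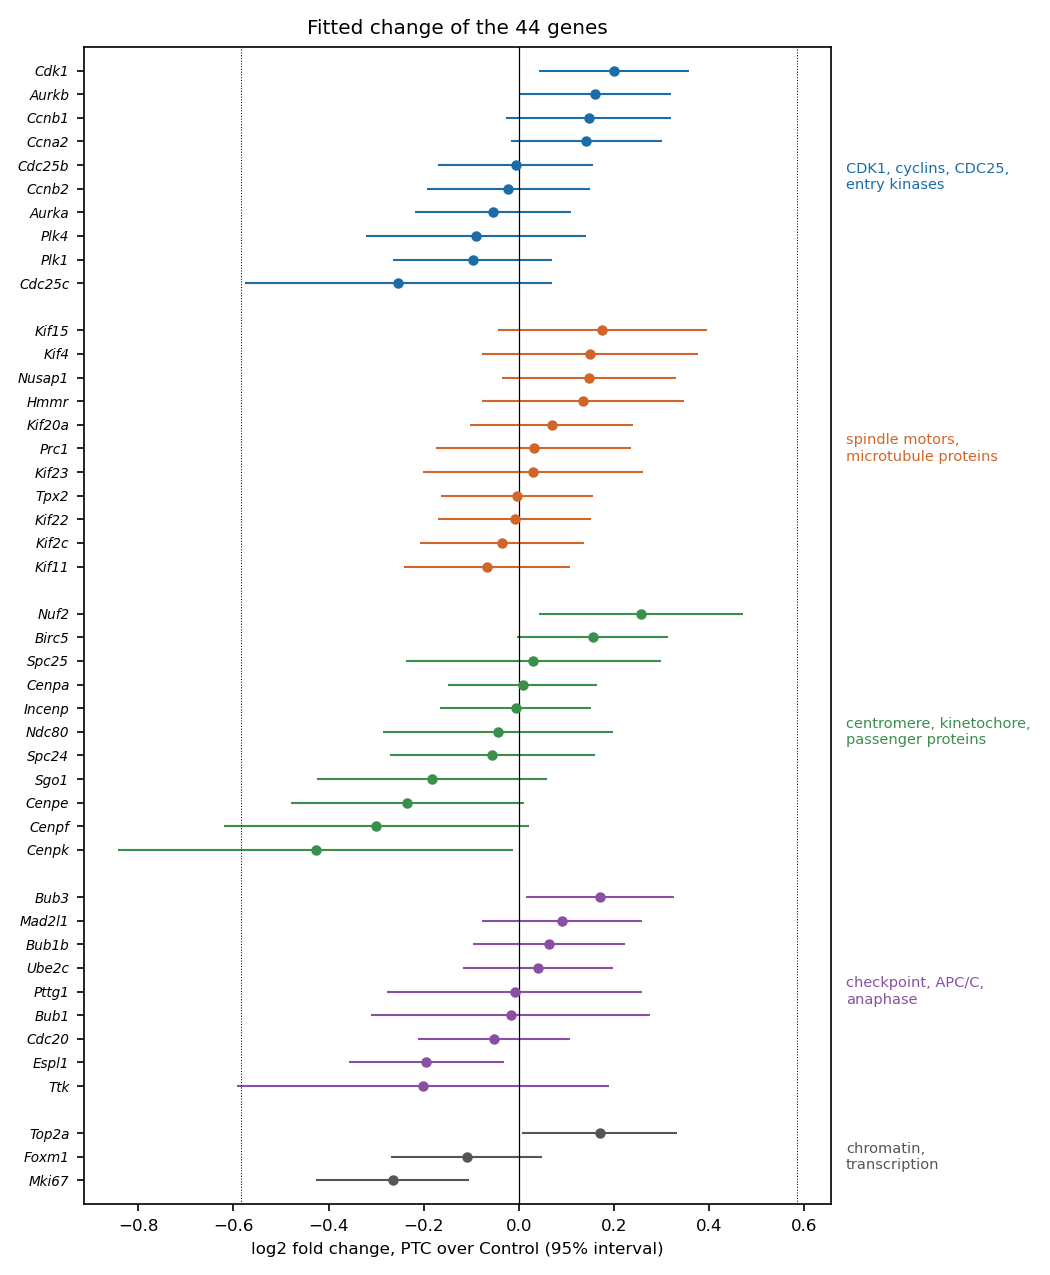
Fitted log2 fold change of PTC over Control (x axis) with its 95% interval for the 44 genes, grouped and coloured by role, with dotted lines at a 1.5-fold change either way. The intervals of 36 genes include 0, and those of 3 genes, Cenpk, Cenpf and Ttk, reach past the lower dotted line.

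The centromere, kinetochore and passenger genes spread the most, from -0.43 to 0.26 on the log2 scale over 11 genes, with 7 negative. Nuf2, a subunit gene of the NDC80 complex that binds microtubules, had 39.3 and 36.5 CPM in Control and 42.5 and 47.9 CPM in PTC libraries. Its log2 fold change of 0.26 (95% interval 0.04 to 0.47, edgeR adjusted p = 0.277) was the highest of the 44. The other subunits of that complex had lower fitted values. Ndc80 stood at -0.04, Spc24 at -0.06 and Spc25 at 0.03, and the differences between subunits were not tested.

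Cenpk, a gene of the constitutive centromere network, had 8.62 and 7.98 CPM in Control and 5.20 and 7.12 CPM in PTC libraries, the lowest log2 fold change of the 44 at -0.43 (95% interval -0.84 to -0.01, edgeR adjusted p = 0.372). Without PTC 1 its value was -0.22 and without PTC 2 it was -0.67. Cenpe, a kinetochore motor gene, had 26.7 and 25.3 CPM in Control and 22.9 and 21.4 CPM in PTC libraries (log2 fold change -0.23, edgeR adjusted p = 0.413). Cenpf, a large kinetochore protein gene, had 16.7 and 19.7 CPM against 12.7 and 16.8 CPM, where the groups overlapped (log2 fold change -0.30, edgeR adjusted p = 0.426). Sgo1, which protects centromeric cohesin, was at -0.18. Birc5, encoding the passenger protein survivin, had 153 and 142 CPM in Control and 161 and 167 CPM in PTC libraries, a log2 fold change of 0.16 (edgeR adjusted p = 0.402). Incenp, at 195 and 185 CPM against 195 and 183 CPM, and the centromeric histone gene Cenpa, at 192 and 182 CPM against 184 and 191 CPM, differed between groups by less than between replicates.

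Among the 9 checkpoint, APC/C and anaphase genes, Bub3 and Espl1 stood on opposite sides. Bub3, whose protein brings the checkpoint proteins to kinetochores, had 196 and 204 CPM in Control and 222 and 229 CPM in PTC libraries (log2 fold change 0.17, SE 0.07, edgeR adjusted p = 0.329). Espl1, the gene of separase, the protease that cuts cohesin, had 144 and 151 CPM in Control and 123 and 134 CPM in PTC libraries (log2 fold change -0.19, SE 0.08, edgeR adjusted p = 0.279). Pttg1, encoding the separase inhibitor securin, had 19.4 and 18.2 CPM against 19.4 and 17.9 CPM. Ttk, the checkpoint kinase gene, had 12.1 and 11.4 CPM in Control and 8.001 and 12.4 CPM in PTC libraries. Its log2 fold change of -0.20 came from PTC 1, and without that library it was 0.08.

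Mad2l1, the gene of the checkpoint inhibitor of CDC20, was at 0.09, Bub1b at 0.06 and Bub1 at -0.02, the last of these with 20.3 and 26.6 CPM in Control libraries enclosing both PTC values. Cdc20 had 176 and 162 CPM in Control and 162 and 164 CPM in PTC libraries, and Ube2c 198 and 214 CPM against 213 and 209.6 CPM, so neither was separated by group. Exons of Ube2c overlap those of Tnnc2 on the opposite strand over 22.8% of their bases.

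Top2a and Mki67, both widely used as markers of dividing cells, lay on opposite sides of 0. Top2a, the topoisomerase that untangles chromosomes before they part, had 366 and 406 CPM in Control and 431 and 437 CPM in PTC libraries, 0.17 higher on the log2 scale (SE 0.08, 95% interval 0.01 to 0.33, edgeR adjusted p = 0.357). Mki67 (chr7:135689784-135716361, minus strand), encoding the Ki-67 protein that coats mitotic chromosomes, had 200.5 and 214 CPM in Control and 165 and 179.5 CPM in PTC libraries. Its level in PTC libraries was 83.2% of Control, a log2 fold change of -0.27 (SE 0.08, 95% interval -0.43 to -0.10, edgeR adjusted p = 0.106). Mki67 was called when low counts were not filtered (adjusted p = 0.049), with library totals alone (0.039) and without Control 1 (0.021), and its adjusted p was 0.884 without PTC 1.

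Within each library the log2 ratio of Mki67 to Top2a was -0.87 and -0.93 in Control 1 and 2 and -1.39 and -1.28 in PTC 1 and 2. The groups did not overlap, with a difference of -0.44. With Top2a wholly higher and Mki67 wholly lower in the PTC libraries, their ratio could not overlap. The pair was chosen after its values were seen, so this is a description. An exact two-sided permutation test gave p = 0.333, the smallest that 2 against 2 libraries allow, so it cannot decide. Foxm1, the transcription factor gene that drives many G2 genes, had 155 and 148 CPM in Control and 137 and 145 CPM in PTC libraries (log2 fold change -0.11, edgeR adjusted p = 0.582).

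Beyond the 44 genes, 142 further genes stood in 6 lists, here called the other mitotic lists, including a list of transcription regulators (MuvB, MYB, DREAM and NF-Y). They gave 2 calls among the 140 tested, which is 1.43% beside 1.35% of all genes tested. These were the spindle gene Psrc1 and, from the list of regulators, Tfdp1, both higher with PTC. Psrc1 (chr3:108383839-108388231, plus strand), encoding the spindle protein DDA3 that loads the motor Kif2a on microtubules, had 44.3 and 39.3 CPM in Control and 70.6 and 60.0 CPM in PTC libraries. It rose 1.56-fold, a log2 fold change of 0.64 (SE 0.10, edgeR adjusted p = 0.00243), and was called with each other scaling, filter and tool, with the replicate block and without each library in turn. It was the single call among 36 spindle, centrosome and cytokinesis genes, whose median log2 fold change was 0.01. Tfdp1 (chr8:13338751-13378448, plus strand), encoding the DP1 partner of E2F factors, had 209.7 and 229.5 CPM in Control and 294 and 276 CPM in PTC libraries. It rose 1.298-fold (log2 fold change 0.38, SE 0.08, edgeR adjusted p = 0.0194), a call lost without PTC 1 (adjusted p = 0.385) and without PTC 2 (0.0628). It was the single call among 15 genes of MuvB, MYB, DREAM and NF-Y, whose median was 0.06. Within that list Rbl1, encoding the pocket protein p107, stood at 0.30 (edgeR adjusted p = 0.187) and E2f5, encoding an E2F that binds pocket proteins, at -0.63 (0.266), both named after their values were seen.

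The remaining 4 lists had no call. Over all genes tested 12.9% had an unadjusted p under 0.05, against 0%, 6.25%, 5% and 21.1% of these lists in the order given here. Condensin and cohesin (18 genes, median log2 fold change -0.03, 0 at an unadjusted p under 0.05) ran from -0.17 for Smc3, a cohesin subunit gene, to 0.21 for Ncapg, a condensin subunit gene. Other kinetochore and centromere genes (32 genes, median 0.02, 2 at an unadjusted p under 0.05) ran from -0.25 for Cenpp to 0.33 for Ska2, which helps kinetochores hold microtubule ends. APC/C genes (20 genes, median -0.05, 1 at an unadjusted p under 0.05) ran from -0.30 for the subunit gene Anapc16 (edgeR adjusted p = 0.0791) to 0.12 for Cdc16. Other G2/M kinases, phosphatases and regulators (19 tested of 21, median 0.05, 4 at an unadjusted p under 0.05) ran from -0.29 for Bora, the Aurora A cofactor gene, to 0.32 for Gtse1, a G2 and S phase protein gene (edgeR adjusted p = 0.0808). Ccna1 and Ccnb3 were too low to test.

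A list of 32 DNA replication and G1/S genes was set beside the mitotic genes. It had a median log2 fold change of 0.07 with 22 genes positive, against -0.01 and 20 of 44 for the mitotic genes, and 1 call, the ribonucleotide reductase gene Rrm1 at 0.43 (edgeR adjusted p = 0.00676, and 0.149 without PTC 1). Of the 32, 7 were higher and 1 lower at an unadjusted p under 0.05, or 25% together, against 12.9% of all genes tested (6.01% higher, 6.89% lower). A negative log2 fold change was found for 31.2% of the 32, against 50.7% of all genes tested. The difference between the lists was not tested.

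**Figure D5:**
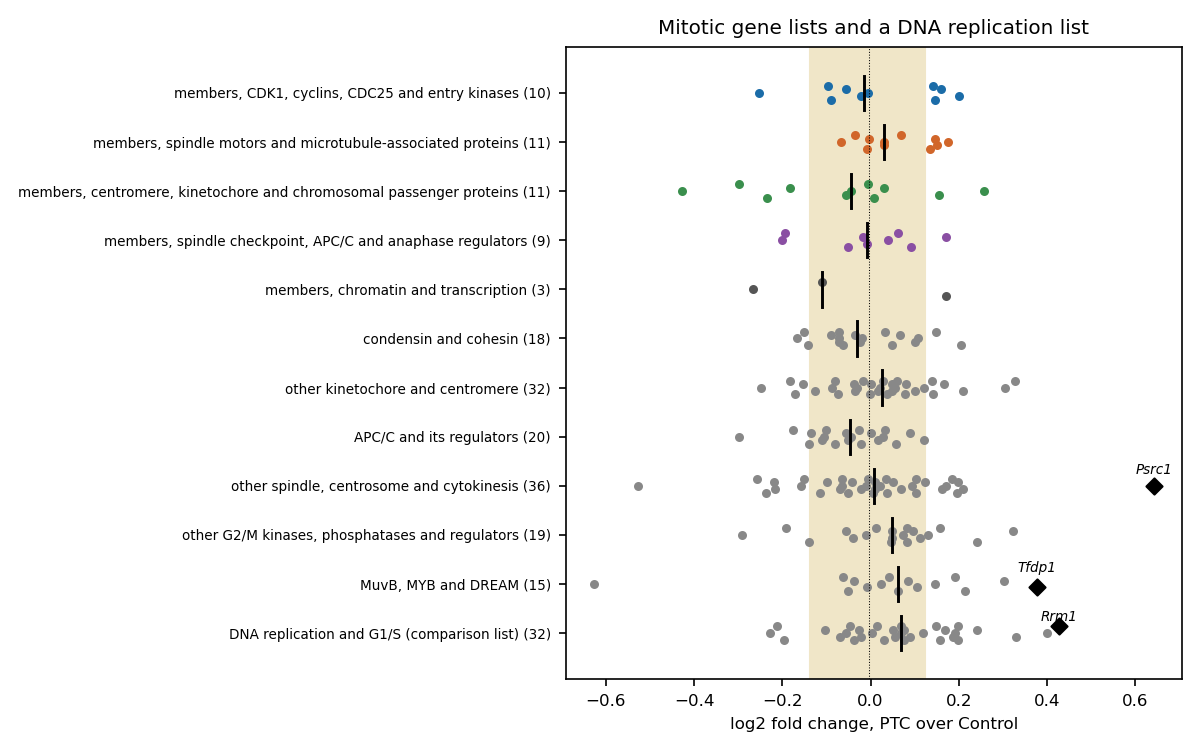
Log2 fold change of PTC over Control (x axis) for every tested gene of the 5 roles, the 6 other mitotic lists and the DNA replication list, with the number tested in brackets, black bars at the medians, black diamonds for genes called by edgeR, and a shaded band from the lower to the upper quartile of all genes tested. Every median lies inside the band, and Psrc1, Tfdp1 and Rrm1 are the diamonds.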

How the data were processed

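RNA-seq counts of 2 Control and 2 PTC libraries of mouse primary T cells were used, grouped by the treatment label, with replicate numbers from the titles. The deposited table holds raw counts per gene, used as the authors deposited them; CASAVA 1.8, HISAT2 2.0.5 and featureCounts 1.5.0-p3 are named per the submitters' processing notes. Strandedness, build and the treatment of multi-mapping reads: not given in the sources used here. Coordinates of 41 of the 44 genes equalled those of GENCODE M21 on GRCm38. Another 2 count columns match no sample and were not used.

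The whole table, after filterByExpr and TMM scaling, was fitted in edgeR 4.0.16 (R 4.3.3; quasi-likelihood, group as the sole term), with Benjamini-Hochberg adjustment. A gene was called at an adjusted p under 0.05. Standard errors are the unshrunken log2 fold change over the root of the F statistic. The test was checked on simulated counts, with changes placed in genes drawn from all genes tested. It recovered 32% of 1.3-fold and 64% of 1.5-fold changes. Alternatives were RLE, upper-quartile and no scaling factors, other filters, limma-voom (limma 3.58.1), DESeq2 1.42.0, a replicate block and leaving out each library. Every pair of libraries differed beyond counting noise (chi-square per degree of freedom at least 4.70), so none was a repeated deposit. Levels were compared per length, from the deposited gene length.

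The 44 genes and the lists were chosen with earlier results of these data known. Values in every library were given for genes with an unadjusted p under 0.05 and, per role, for the highest and lowest change and the highest level (16 genes). Other members are described as further examples. From other lists, called genes, or else the highest and lowest change, were named.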

Additional observations from a re-analysis of the deposited data

How the results depend on the processing

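The count of mitotic genes called was 0 with RLE and upper-quartile scaling, a filter at 1 CPM in 2 samples, limma-voom, DESeq2 and the replicate block, and 1, Mki67, with library totals alone and with no filter on low counts. It ran from 0 to 1 when each library was left out in turn. The median log2 fold change of the 44 genes was -0.047 with library totals alone and ran from -0.047 to 0.038 with libraries left out; the cause was not tested. The count over all genes, 188, was 432 with no filter and ran from 76 to 422 with libraries left out. The count in the 6 other mitotic lists, 2, was 4 with no filter and ran from 1 to 5 with libraries left out. Values near 0 changed sign: Kif22 was at 0.0065 and Incenp at 0.0092 with upper-quartile scaling. With libraries left out, Kif22 ran from -0.057 to 0.041, Incenp from -0.051 to 0.044, Cdc20 from -0.11 to 0.020, Kif11 from -0.13 to 0.017, Ccnb2 from -0.12 to 0.075 and Ttk from -0.55 to 0.078. The sign of the fold change was the same without each library in turn for 27 of the 44 genes. Of these, 15 were higher and 12 lower with PTC. The same share over all genes tested was not computed, so this count does not set the 44 genes apart.

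With the replicate number as a block, 237 genes and 0 mitotic genes were called, 5 mitotic genes had an unadjusted p under 0.05 and the adjusted p of Mki67 was 0.197. Same-numbered libraries deviated in opposite directions (correlation -0.152 across 8832 genes), and the crossed pairing, added after seeing the data, called 699 genes and 1 mitotic gene. The numbers are not known to pair the libraries. With TTCGAA also accepted as a CHR, 27 of 36 windows held it. With 2 libraries per group, small changes can go uncalled.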
